A study of Homo sapiens with 24 samples.

Results

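Very long genes were taken as the rows of the deposited gene table whose span, from the first to the last base of the gene, was at least 500 kb. Of 23354 genes, 386 met this limit. Symbols beginning with LINC (4 rows), symbols with -AS (4 rows) and 1 further symbol named by the rule were left out, which gave 377 members. The span was set against the gene length in a reference annotation. It was matched for 281 members, while 94 rows spanned over 2 times the reference length, where 1 symbol can stand for several copies, and 2 rows had no reference length. The 281 matched members are described as very long genes below, and counts over the 377 rows are given beside them.

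The sequenced RNA came from MV4-11 and KG-1a, both established human acute myeloid leukemia (AML) cell lines that the labels give as WT. Cells were left untreated or treated with 1 μM 8-chloro-adenosine (8CA) or 1 μM 8-amino-adenosine (8AA), adenosine analogs whose base bears chlorine in the former and an amino group in the latter. RNA was collected at 8 h and at 24 h, for untreated cells too, which gave 12 groups of 2 libraries, lettered A and B. The labels do not say whether the libraries of a group came from separate cultures, so the p-values measure only the spread between these libraries, which may be technical. The untreated group of each line and hour served as control for both drugs. All groups carry the same genotype label, WT, which does not mean that the 2 lines are genetically alike.

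RNA polymerase II copies a gene from its start to its end in 1 pass, exons and introns alike, so a very long gene needs hours for a single transcript. Analogs of adenosine that enter the growing RNA can end the chain, and inhibitors of elongation or of topoisomerase I are known to lower long genes first. Many of the longest human genes encode adhesion, channel and scaffold proteins of neurons and muscle, and several lie at common fragile sites.

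The matched very long genes lay on 23 chromosomes and spanned 500.1 to 2304.6 kb, with a median of 707.2 kb. CNTNAP2, a neurexin-like adhesion protein, was the longest. Spans of at least 1000 kb were found for 58 of them. Their exons summed to a median of 6.68 kb, so that exon made up a median of 0.849% of the span. In genes under 500 kb the median span was 19.4 kb, the median exon length 2.75 kb and the median exon share 14.9%. The counts therefore come from a small part of each very long gene.

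Of the matched very long genes, 85 of 281 had enough counts to be tested in MV4-11 and 125 in KG-1a, with 69 tested in both lines, 16 in MV4-11 alone, 56 in KG-1a alone and 140 in neither. A gene could pass this filter through 1 group in which it was high. Counts were 0 in all 12 libraries for 103 matched genes in MV4-11 and for 76 in KG-1a. The longest tested in MV4-11 were PDE4D (1519.1 kb), MAGI2 (1436.5 kb) and CSMD3 (1214.1 kb). In KG-1a they were PTPRD (2298.5 kb), DMD (2220.4 kb), which encodes dystrophin, and DLG2 (2172.3 kb). MAGI2, PTPRD, DMD and DLG2 fall outside the rule for named genes and were picked after their values had been seen.

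The libraries held 18633963 to 24520078 counts. Of the AML cell markers, LYZ ranged over 2556 to 3672 CPM, counts scaled to the library total, and FLT3 over 415 to 596 in MV4-11. MPO was lower there at 7.69 to 12.6, HOXA9 at 6.87 to 9.01 and CD34 at 0 to 0.165. KG-1a held CD34 at 340 to 656 CPM and PTPRC at 709 to 820. In KG-1a CD33 was at only 0.364 to 1.06, LYZ at 0.598 to 1.39, FLT3 at 0.165 to 1.38 and MPO at 0.0970 to 2.25. SPI1 was at 6.11 to 8.07 there and MEIS1 at 0. The epithelial marker EPCAM was at 0 in every library, while the T-cell marker CD3E was at 0 in MV4-11 and at 22.9 to 81.7 CPM in KG-1a, and its part in the results was not tested. The KG-1a pair treated with 8AA for 24 h stood apart, with a chi-square per degree of freedom between its libraries of 12.3, against 1.43 to 5.20 for the other 11 pairs.

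The promoters shown are those of the matched very long genes that moved one way under each drug in each line at 24 h, so that the starts of these long transcription units can be compared. Each window runs from 250 bases before to 50 bases after the outermost start in RefSeq, build GRCh38.p14, written 5′ to 3′ on the strand of the gene. Capitals mark the GC box, GGGCGG or its reverse complement CCGCCC, the motif bound by Sp1-type factors. The windows are chr10:74150971-74151270 on the + strand for ADK, chr17:60677601-60677900 on the + strand for BCAS3 and chr6:152637313-152637612 on the − strand for SYNE1.

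ADK: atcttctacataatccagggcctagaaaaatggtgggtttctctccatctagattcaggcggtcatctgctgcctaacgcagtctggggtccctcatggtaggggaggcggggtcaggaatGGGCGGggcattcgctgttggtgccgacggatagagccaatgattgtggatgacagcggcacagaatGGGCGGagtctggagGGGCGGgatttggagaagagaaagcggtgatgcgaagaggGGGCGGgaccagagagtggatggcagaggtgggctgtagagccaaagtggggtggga
BCAS3: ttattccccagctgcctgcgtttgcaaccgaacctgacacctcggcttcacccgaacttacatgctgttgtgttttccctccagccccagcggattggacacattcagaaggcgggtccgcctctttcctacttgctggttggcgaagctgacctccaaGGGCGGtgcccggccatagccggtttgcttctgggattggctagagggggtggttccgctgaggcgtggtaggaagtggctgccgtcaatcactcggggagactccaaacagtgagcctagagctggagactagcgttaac
SYNE1: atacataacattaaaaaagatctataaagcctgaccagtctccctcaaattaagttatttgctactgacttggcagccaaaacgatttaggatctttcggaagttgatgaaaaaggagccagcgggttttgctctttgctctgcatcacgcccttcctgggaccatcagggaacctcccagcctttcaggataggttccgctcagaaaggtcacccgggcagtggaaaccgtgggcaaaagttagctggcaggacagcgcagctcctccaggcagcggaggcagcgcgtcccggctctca

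The ADK window held 4 GC boxes, the BCAS3 window 1 and the SYNE1 window 0, at a GC content of 58.0%, 58.3% and 51.7%. RefSeq gave promoter windows for 231 of the matched very long genes. A GC box was present in 40.5% of their 529 windows, against 45.0% of the 35116 windows of all genes. A match of these letters describes the sequence and does not show a bound site.

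Very long genes were a small share of the counts, and this share of the raw total was higher after 24 h of either drug. In MV4-11 at 24 h the matched genes took 0.244% and 0.240% of all counts in the untreated libraries, 0.305% and 0.303% under 8CA, and 0.288% and 0.283% under 8AA. In KG-1a at 24 h they took 0.403% and 0.402% untreated, 0.463% and 0.470% under 8CA, and 0.418% and 0.452% under 8AA. In both lines every treated library lay above both untreated ones at 24 h by this raw share. It leaves out the TMM scaling factors used for the fold changes. In KG-1a at 24 h these factors were 1.05 and 1.07 under 8AA, against 0.990 and 0.987 untreated. With each share divided by its factor, 8AA library A lay below both untreated ones there. The other treated libraries at 24 h stayed above. At 8 h the MV4-11 shares were 0.220% and 0.230% untreated, 0.236% and 0.233% under 8CA, and 0.246% and 0.242% under 8AA. KG-1a at 8 h gave 0.375% and 0.379% untreated, 0.374% and 0.378% under 8CA, and 0.367% and 0.370% under 8AA. At 8 h the treated libraries lay above the untreated ones in MV4-11 by the raw share. In KG-1a the 8AA libraries lay below them and the 8CA libraries overlapped with them. With each share divided by its factor, the 8CA libraries at 8 h overlapped with the untreated ones in MV4-11 and lay below them in KG-1a.

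Which very long genes were used differed between the lines before any drug, as the plot of untreated levels shows. Per kb of exon, the highest in MV4-11 were SMYD3, a lysine methyltransferase, at 55.1 CPM per kb (mean of 4 libraries, range 48.5 to 63.3), and ADK, adenosine kinase, at 43.4 (42.8 to 44.4). FAF1, a Fas-associated adaptor of ubiquitin-dependent pathways, followed at 33.4 (32.2 to 34.4), and these ranges do not overlap. In KG-1a the highest was ARHGAP15, a Rac GTPase-activating protein, at 54.4 CPM per kb (51.8 to 55.6). FAF1 came next at 41.1 (38.5 to 43.0), then ADK at 30.2 (28.3 to 32.2), whose range overlapped with that of GMDS, an enzyme of GDP-fucose synthesis, at 29.8 (27.9 to 31.2). ARHGAP15 and GMDS were named after their values had been seen.

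**Figure D1:**
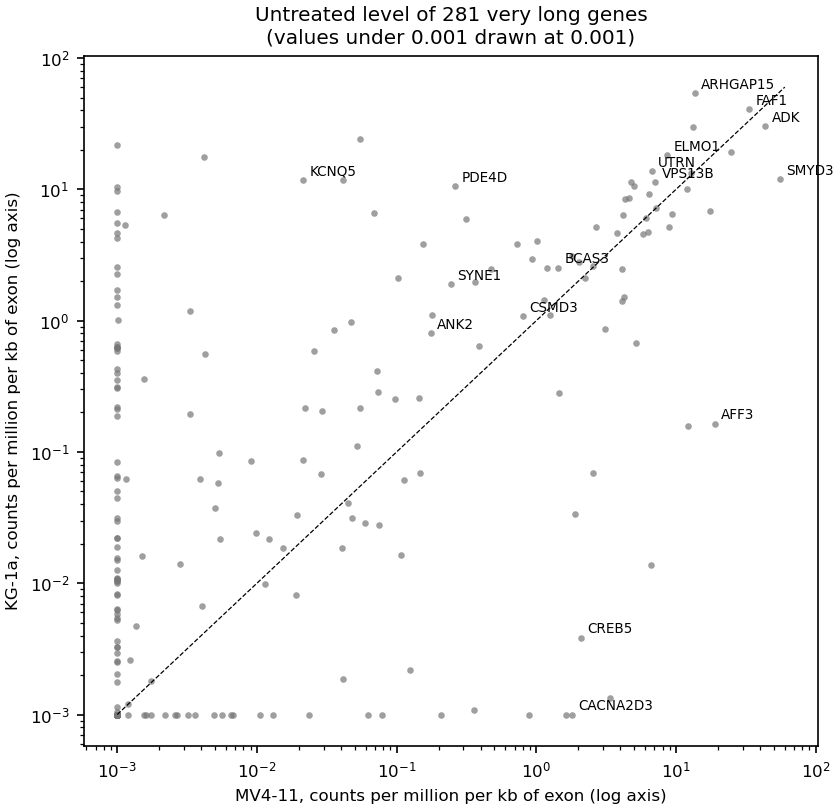
Untreated level of the matched very long genes in MV4-11 (horizontal) and KG-1a (vertical), each the mean of 4 libraries in CPM per kb of exon on logarithmic axes, with 1 point per gene, a dashed line of equal levels and values under 0.001 drawn at 0.001. SMYD3 lies farthest right at 55.1 in MV4-11, ARHGAP15 highest at 54.4 in KG-1a, and AFF3 and KCNQ5 lie far from the line on opposite sides.

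Untreated MV4-11 and KG-1a were compared over both hours with the 24 libraries fitted together, and 169 members could be tested. With p-values from the quasi-likelihood test of edgeR, adjusted by Benjamini-Hochberg over all genes and used for every adjusted p below with a call at an adjusted p under 0.05, 109 members were lower in MV4-11 and 47 higher. Of all genes tested, 44.3% were called lower and 43.1% higher. For the 141 matched genes tested the counts were 96 and 35, with a median log2 difference of −1.99. A gene could enter these counts through the line in which it was high. By the filter of each line, 56 matched genes were tested in KG-1a alone and 16 in MV4-11 alone. The part of the filter in this difference was not tested. AFF3, a nuclear protein of the AF4 family, was at 19.0 CPM per kb in MV4-11 and 0.165 in KG-1a, a log2 difference of 6.88 (95% interval 6.72 to 7.04). PDE4D, a cAMP phosphodiesterase, was at 0.263 CPM per kb in MV4-11 and 10.6 in KG-1a (log2 difference −5.34, interval −5.54 to −5.13). KCNQ5, a potassium channel, was at 0.0214 and 11.8 CPM per kb (−9.12, interval −9.37 to −8.87). CACNA2D3, CLSTN2 and DOCK1 had 0 counts in the 4 untreated KG-1a libraries, and ATP8A2, RORA, TENM1 and SLIT3 had 0 in those of MV4-11, where 3 counts, the limit a count of 0 allows, correspond to 0.122 to 0.161 CPM in a library of either line.

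The question for the drugs is whether genes that need long elongation moved differently from shorter ones. At 24 h the called very long genes were mostly higher, in both lines and with both analogs. Here and below, higher and lower are relative to the other genes of a library, since scaling holds most genes near 0. A change in the amount of RNA per cell was not measured. In MV4-11 treated with 8CA, 12 of 110 members tested were lower and 32 higher, where 22.7% of all genes were lower and 21.2% higher. With 8AA, 5 members were lower and 27 higher, against 15.3% and 13.9% of all genes. The median log2 fold change of members was 0.12 under 8CA and 0.19 under 8AA, and that of all genes tested was 0.0022 and 0.0032 there and at most 0.0134, in KG-1a under 8AA at 24 h, in the 8 comparisons. With 8CA, 7 members were lower without untreated replicate B and 5 without 8CA replicate A or without B, and 21 were higher without untreated replicate B or 8CA replicate A. With 8AA, 2 were lower without untreated replicate A and 3 without untreated replicate B.

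In KG-1a treated with 8CA, 14 of 150 members tested were lower and 39 higher, with 24% of all genes lower and 23.4% higher. The counts became 9 lower without untreated replicate B, 7 lower without 8CA replicate B and 24 higher without untreated replicate A. With 8AA, 19 members were lower and 33 higher, against 26.6% and 25.4% of all genes. In the KG-1a 8AA pair that stood apart, leaving out library A gave 20 lower and 39 higher with a median of 0.12, and leaving out library B gave 25 and 26 with a median of 0.02. Scaling by library size in place of TMM gave 12 lower and 50 higher there, with a median of 0.19 for members and 0.11 for all genes. Scaling by the upper quartile gave 13 and 48.

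At 8 h the calls were fewer and their direction was mixed. In MV4-11, 4 members were lower and 7 higher under 8CA (5.77% and 4.58% of all genes), and 9 lower and 16 higher under 8AA (15.6% and 13.6%). With 8AA at 8 h the split became 6 lower and 24 higher by library size or by the upper quartile. It became 5 lower without 8AA replicate B and 8 higher without untreated replicate A. The 7 higher under 8CA at 8 h became 1 without 8CA replicate A or without B and 2 without untreated replicate A or without B, and the 4 lower became 2 without untreated replicate B or 8CA replicate B.

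In KG-1a at 8 h, no member was called under 8CA by edgeR or by DESeq2's Wald test, and 7 of 150 had an unadjusted p under 0.05 in edgeR. Few genes were called at all in that comparison, 0.181% lower and 0.7% higher. With 8AA, 23 members were lower and 15 higher, against 18% and 16.7% of all genes, and 18 and 18 by library size. Leaving out untreated replicate B gave 13 and 9, leaving out 8AA replicate A gave 15 lower and leaving out 8AA replicate B gave 12 and 7. Under TMM scaling more members were thus called lower than higher there, as the plot of span classes also shows for the matched genes, but not by library size. Under 8CA at that hour in MV4-11, 7 were higher and 4 lower, and the order turned to 1 higher and 4 lower by DESeq2's Wald test and to 1 and 2 in the fit of the 4 libraries compared.

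Genes of other spans were set beside the very long class. In MV4-11 treated with 8CA for 24 h the share called higher grew from each class to the next longer one, which no other comparison at 24 h showed. Without rows of unmatched span, the rank correlation of the change with span over all genes tested was 0.14 there. It was 0.02 under 8AA in MV4-11, and 0.08 under 8CA and 0.02 under 8AA in KG-1a, at 24 h. Among the 85 matched genes in MV4-11 under 8CA it was −0.03. In MV4-11 treated with 8CA, 27.1% of genes under 10 kb were lower and 14.0% higher, and their median log2 fold change was −0.07. Among genes of 200 to 500 kb these shares were 12.1% and 32.8% (median 0.12), and among the 85 matched very long genes 11.8% and 35.3% (median 0.20). With 8AA the shares in MV4-11 were 13.3% and 11.9% under 10 kb, 7.39% and 21.0% at 200 to 500 kb, and 3.53% and 29.4% at 500 kb or more (median 0.20). The class of 500 kb or more was the least expressed of the classes, with a median level of 3.67 log2 CPM in MV4-11, against 4.08 for genes under 10 kb. The part of this difference in level was not tested.

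In KG-1a treated with 8CA, 26.0% of genes under 10 kb were lower and 17.4% higher, against 17.9% and 27.8% at 200 to 500 kb and 8.80% and 28.0% in the 125 matched very long genes (median 0.12). With 8AA the shares were 25.4% and 22.2%, 21.5% and 28.5%, and 12.8% and 23.2% (median 0.08). The share called lower was smallest in the very long class under both drugs, whereas the share called higher in very long genes under 8AA lay below that of genes of 200 to 500 kb. At 8 h under 8AA, 16.8% of the very long genes in KG-1a were lower and 9.60% higher, and in MV4-11 4.71% and 17.6%. Among the 58 matched genes of at least 1000 kb, 19 were tested in KG-1a. At 24 h 1 was lower and 5 higher under 8CA (5.26% and 26.3%, all genes 24% and 23.4%). Under 8AA 2 were lower and 6 higher (10.5% and 31.6%, all genes 26.6% and 25.4%). Only 8 of the 58 were tested in MV4-11, with 1 lower and 2 higher under 8CA (12.5% and 25%, all genes 22.7% and 21.2%). The median log2 fold change of these 8 was −0.14 under 8CA, below 0, and 0.50 under 8AA.

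**Figure D2:**
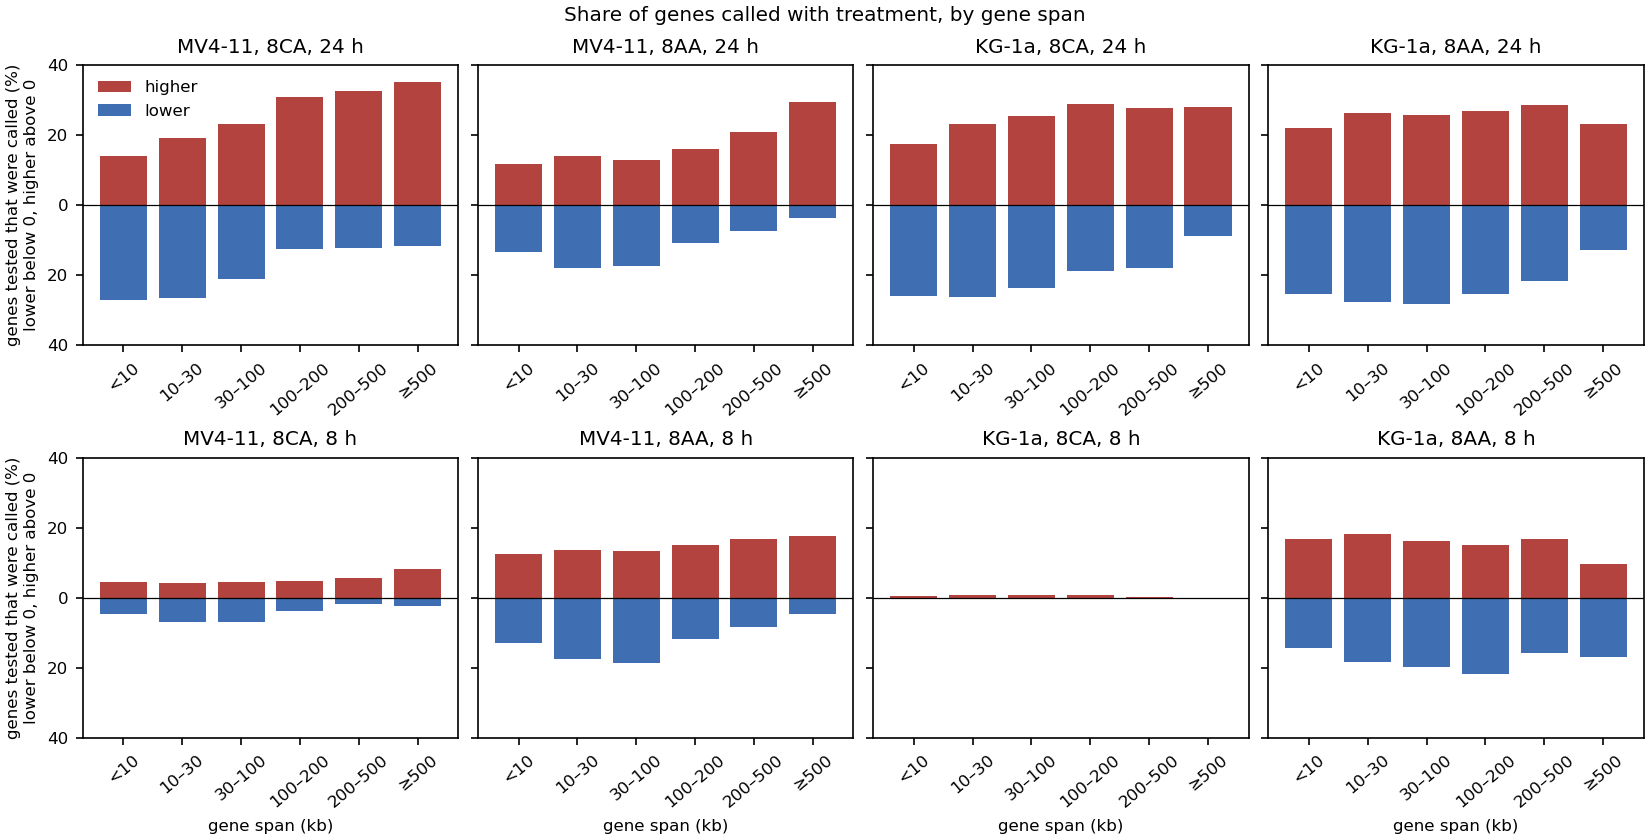
Share of tested genes called lower and higher (percent) by class of gene span, for each drug, line and hour against the untreated group of the same line and hour. In MV4-11 treated with 8CA for 24 h, 14.0% of genes under 10 kb and 35.3% of matched very long genes were called higher.

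Untreated cells changed in the same direction between the hours, a comparison added after the data had been seen. From 8 h to 24 h without drug, 1 member was lower and 10 higher in MV4-11, against 2.16% and 3.38% of all genes. In KG-1a 7 members were called, each higher, against 1.97% lower and 2.49% higher over all genes. The matched very long genes had a median log2 change of 0.15 in MV4-11, while genes under 10 kb had −0.06. The drug comparisons at each hour used the untreated libraries of that hour.

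Of the 91 members tested in both lines, 2 were lower in all 4 comparisons at 24 h, ADK and PPP2R2A, and 2 were higher in all 4, BCAS3 and SYNE1. Over the 11485 genes tested in both lines, 7.64% were lower and 4.01% higher in all 4. The share of members was thus below that of all genes in both directions. Each line's comparisons share their untreated libraries, so the calls with both drugs are not independent. The calls of ADK, BCAS3 and SYNE1 at 24 h were kept under every alternative run. PPP2R2A, a regulatory subunit of protein phosphatase 2A, is 1 of the rows whose span exceeds the reference gene, and its call in MV4-11 treated with 8CA (log2 fold change −0.13) was lost under 8 of 13 alternatives, among them library-size scaling (−0.08), DESeq2's Wald test (−0.13) and the fits without untreated replicate A (−0.07), 8CA replicate A (−0.14) or 8CA replicate B (−0.11).

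ADK phosphorylates adenosine to AMP, the entry step of adenosine salvage. On chromosome 10 it spans 75910943 to 76469061 of the + strand in the table's coordinates (hg19), 558.1 kb with 2.43 kb of exon. MV4-11 libraries at 24 h held it at 101 and 105 CPM untreated, 79.8 and 79.3 under 8CA, and 84.9 and 92.5 under 8AA. Both treated groups lay below the untreated libraries without overlap. The log2 fold change was −0.37 ± 0.05 (SE) under 8CA (edgeR adjusted p = 2.6e-05) and −0.22 ± 0.05 under 8AA (edgeR adjusted p = 0.0041). In KG-1a at 24 h ADK was at 72.1 and 71.7 CPM untreated, 54.9 and 60.8 under 8CA, and 47.5 and 50.4 under 8AA, again without overlap. The changes there were −0.31 ± 0.06 (edgeR adjusted p = 0.00034) and −0.56 ± 0.06 (edgeR adjusted p = 1.1e-06).

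BCAS3, a WD-repeat protein of the autophagy machinery, spans 58755172 to 59470199 of the + strand of chromosome 17, 715.0 kb with 5.23 kb of exon. Its MV4-11 levels at 24 h were 7.21 and 8.13 CPM untreated, 13.6 and 15.5 under 8CA, and 11.9 and 13.7 under 8AA. KG-1a libraries at 24 h held it at 14.9 and 16.5 CPM untreated, 27.8 and 25.4 under 8CA, and 26.9 and 24.1 under 8AA. Every treated library lay above both untreated ones in each line. The log2 fold changes were 0.92 ± 0.11 and 0.73 ± 0.11 in MV4-11 under 8CA and 8AA (edgeR adjusted p of 9.2e-06 and 0.0002). In KG-1a they were 0.76 ± 0.09 and 0.71 ± 0.09 (edgeR adjusted p of 5.7e-06 and 8.7e-06).

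SYNE1 encodes nesprin-1, a giant spectrin-repeat protein that links the nuclear envelope to actin. Its position is 152442819 to 152958534 on the − strand of chromosome 6, 515.7 kb with 37.1 kb of exon, so that exon makes up 7.19% of its span. In MV4-11 at 24 h it was at 9.79 and 9.71 CPM untreated, 18.4 and 18.1 under 8CA, and 14.6 and 14.7 under 8AA. For KG-1a the values at 24 h were 80.8 and 76.6 CPM untreated, 136 and 138 under 8CA, and 131 and 130 under 8AA. The libraries of each pair lay close together, and no treated library overlapped with an untreated one. The log2 fold changes were 0.91 ± 0.09 and 0.59 ± 0.10 in MV4-11 (edgeR adjusted p of 2.1e-06 and 0.00033) and 0.80 ± 0.05 and 0.73 ± 0.05 in KG-1a (edgeR adjusted p of 4e-09 and 8.1e-09). SYNE1 was also higher after 8 h of 8AA, by 0.72 ± 0.10 in MV4-11 and 0.37 ± 0.05 in KG-1a (edgeR adjusted p of 8.8e-05 and 2.8e-05).

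**Figure D3:**
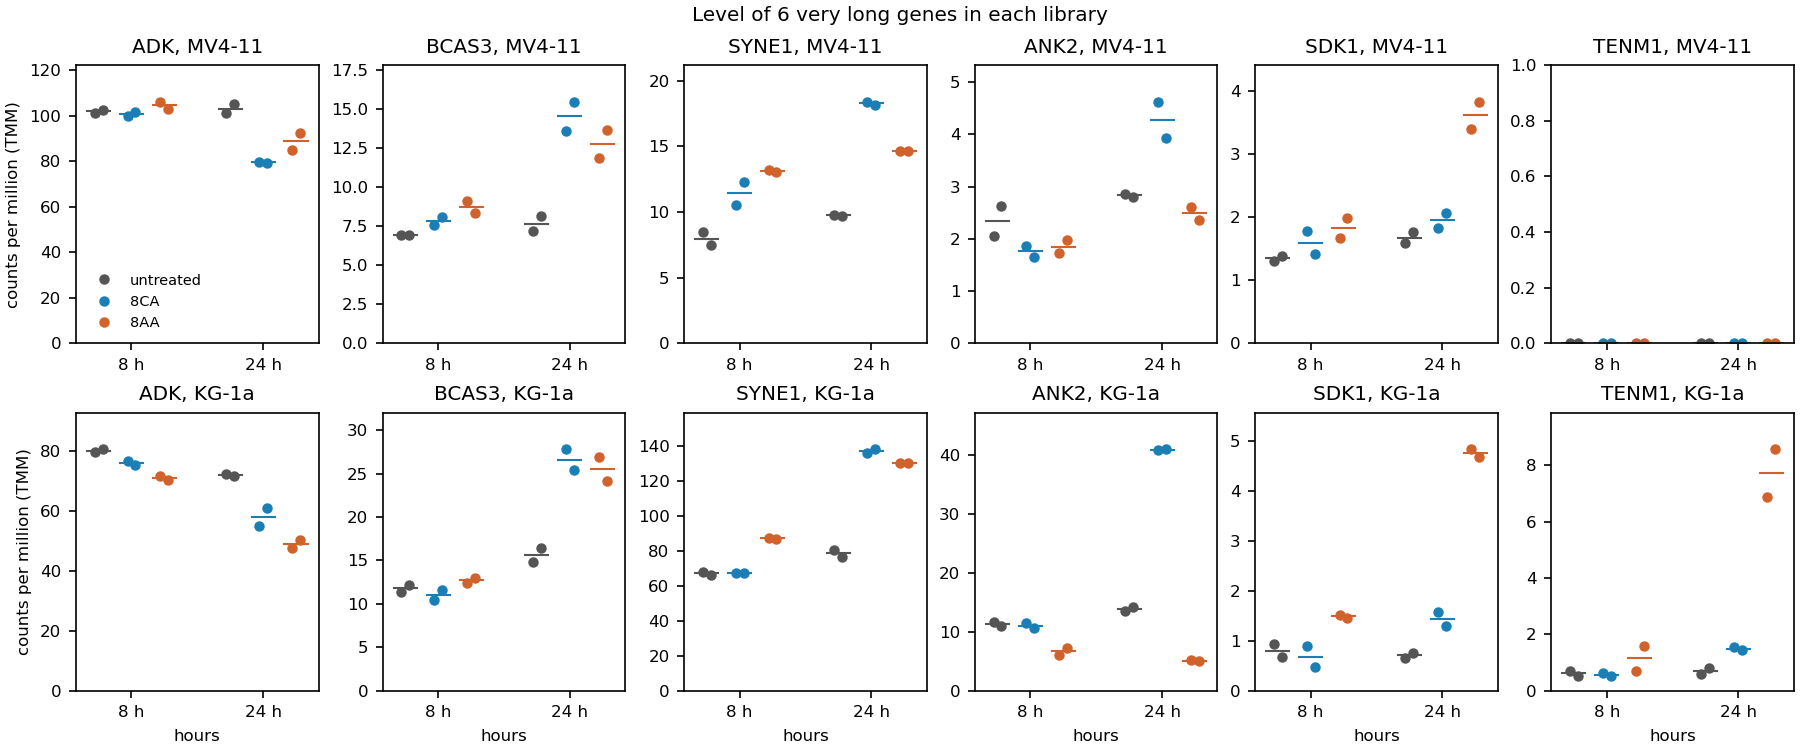
Level in CPM of single very long genes in every library, by line, treatment and hour, with 1 point per library and a bar for the mean of each pair. At 24 h the treated SYNE1 libraries in KG-1a lie between 130 and 138 CPM, above the untreated ones at 80.8 and 76.6, and ANK2 in KG-1a is at 40.9 and 41.1 under 8CA and at 5.18 and 5.12 under 8AA.

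The matched genes were grouped by role in lists written from general knowledge with earlier results of these data known. The lists do not hold every gene of a role: AFF3, CREB5, HIVEP3, SYNE1 and FRMD4A are in none of them. Counts of the lists at 24 h are read against the shares of all genes. These were 22.7% lower and 21.2% higher under 8CA and 15.3% and 13.9% under 8AA in MV4-11. In KG-1a they were 24% and 23.4% under 8CA and 26.6% and 25.4% under 8AA. Of 8 genes of vesicle and membrane traffic tested in MV4-11, 5 rose under 8CA and 5 under 8AA, 62.5% with each drug. In KG-1a 10 were tested, with 1 lower and 5 higher (50%) under 8CA. Under 8AA 2 were lower (20%) and 1 higher (10.0%), both below the shares of all genes.

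VPS13B, a lipid transfer protein of the Golgi, was among the most counted members of both lines. In MV4-11 at 24 h it was at 110 and 107 CPM untreated, 181 and 179 under 8CA, and 150 and 143 under 8AA (log2 fold changes 0.73 ± 0.06 and 0.43 ± 0.06, edgeR adjusted p of 9.2e-08 and 4.6e-05). At 24 h KG-1a had 177 and 170 untreated, 218 and 216 under 8CA, and 152 and 182 under 8AA. There it rose under 8CA (0.32 ± 0.06, edgeR adjusted p = 0.00069), while under 8AA the libraries overlapped with the untreated ones (−0.06, edgeR adjusted p = 0.45).

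DENND1A, a guanine nucleotide exchange factor for Rab35, fell in KG-1a under 8AA. It was at 34.7 and 36.9 CPM untreated, 30.1 and 29.1 under 8CA, and 23.5 and 21.9 under 8AA at 24 h, in 3 groups without overlap (log2 fold change under 8AA −0.66 ± 0.07, edgeR adjusted p = 1.9e-06). TBC1D5, a Rab GTPase-activating protein of the retromer pathway, was among the most counted of all members. For KG-1a at 24 h its values were 187 and 191 CPM untreated and 189 and 206 under 8AA (log2 fold change 0.06, edgeR adjusted p = 0.27).

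Of the cytoskeleton and polarity genes in MV4-11, 3 of the 7 tested rose under 8CA (42.9%, all genes 21.2%) and 2 under 8AA (28.6%, all genes 13.9%). In KG-1a, 8 of 12 rose (66.7%, all genes 23.4%) and 1 fell under 8CA. Under 8AA 2 rose (16.7%) and 3 fell (25%), against 25.4% and 26.6% of all genes. UTRN, utrophin, the homolog of dystrophin, was at 92.9 and 88.6 CPM untreated, 145 and 134 under 8CA, and 111 and 112 under 8AA in MV4-11 at 24 h (log2 fold changes 0.62 ± 0.06 and 0.30 ± 0.06, edgeR adjusted p of 4.5e-07 and 0.001). In KG-1a it was at 201 and 205 untreated, 301 and 315 under 8CA, and 205 and 245 under 8AA. The 8CA change was 0.60 ± 0.06 (edgeR adjusted p = 1.7e-06) and the 8AA change 0.15 (edgeR adjusted p = 0.061), so that only the former was called.

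ANK2, ankyrin-B, which anchors membrane proteins to spectrin, moved in opposite directions with the drugs in KG-1a. At 24 h it was at 13.6 and 14.2 CPM untreated, 40.9 and 41.1 under 8CA, and 5.18 and 5.12 under 8AA. The log2 fold change was 1.56 ± 0.08 under 8CA (edgeR adjusted p = 9.4e-10) and −1.43 ± 0.11 under 8AA (edgeR adjusted p = 3.7e-08). The fall under 8AA was present at 8 h, where ANK2 was at 11.7 and 11.0 CPM untreated and 6.13 and 7.28 under 8AA (−0.75 ± 0.10, edgeR adjusted p = 5.4e-05). With 8CA at 8 h it was at 11.4 and 10.7, which overlapped with the untreated libraries.

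Transcription and chromatin genes held 4 that rose and 1 that fell under 8CA, and 2 that rose under 8AA, among the 10 tested in MV4-11. In KG-1a, 2 of 11 rose under 8CA (18.2%) and 3 under 8AA (27.3%), near the 23.4% and 25.4% of all genes. RORA, an orphan nuclear receptor, was at 7.97 and 7.07 CPM untreated, 7.89 and 9.34 under 8CA, and 15.9 and 23.8 under 8AA in KG-1a at 24 h. Only the 8AA libraries lay apart, and the log2 fold change was 1.39 ± 0.17 (edgeR adjusted p = 7.6e-06), or 1.66 without 8AA library A and 1.08 without B. The rise was there at 8 h, from 6.91 and 5.97 CPM to 12.4 and 12.2 (0.94 ± 0.19, edgeR adjusted p = 0.0013).

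ZBTB20, a zinc finger repressor, rose in KG-1a at 24 h from 2.57 and 2.34 CPM to 4.43 and 4.82 under 8CA and to 3.97 and 5.81 under 8AA (log2 fold changes 0.91 ± 0.21 and 0.97 ± 0.21, edgeR adjusted p of 0.0023 and 0.001). HDAC9, a class IIa histone deacetylase, was at 0.903 and 0.924 CPM untreated and 1.87 and 2.06 under 8AA in MV4-11 at 8 h (1.11 ± 0.28, edgeR adjusted p = 0.0071). FOXP1, a forkhead factor of B-cell development and the most counted of this list, was at 83.2 and 81.0 CPM untreated and 96.9 and 105 under 8AA in KG-1a at 24 h (0.29 ± 0.05, edgeR adjusted p = 0.0002).

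Kinases, phosphatases and other signalling genes held 1 lower and 4 higher under 8CA and 3 higher under 8AA among the 13 tested in MV4-11 (30.8% and 23.1% higher, all genes 21.2% and 13.9%). In KG-1a 1 of 18 was lower and 6 higher under 8CA (5.56% and 33.3%, all genes 24% and 23.4%). Under 8AA 4 were lower and 6 higher (22.2% and 33.3%), near the 26.6% and 25.4% of all genes. PRKCE, protein kinase C epsilon, was at 16.3 and 14.8 CPM untreated, 23.8 and 23.3 under 8CA, and 26.2 and 25.6 under 8AA in MV4-11 at 24 h (log2 fold changes 0.60 ± 0.08 and 0.73 ± 0.08, edgeR adjusted p of 1.9e-05 and 8.3e-06). In KG-1a the PRKCE groups overlapped, and neither change was called. The difference between lines was 0.80 under 8CA (95% interval 0.53 to 1.06, edgeR adjusted p = 0.00018) and 0.61 under 8AA (0.34 to 0.87, edgeR adjusted p = 0.00098).

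PDE4D, the longest gene tested in MV4-11, was at 161 and 148 CPM untreated, 196 and 209 under 8CA, and 116 and 145 under 8AA in KG-1a at 24 h. It rose under 8CA (0.39 ± 0.08, edgeR adjusted p = 0.0013). With 8AA it fell by 0.24 on the log2 scale (edgeR adjusted p = 0.024), a call that was lost under 5 of 13 alternatives, among them library-size scaling (−0.15), the fit without 8AA replicate A (−0.09) and the fit without untreated replicate A (−0.20). FAF1 fell in KG-1a under 8AA, from 110 and 114 CPM to 94.7 and 82.4 at 24 h (−0.33 ± 0.06, edgeR adjusted p = 0.00035), and was at 116 and 109 under 8CA, within the spread of the untreated libraries.

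Adhesion, synaptic and channel genes were the largest role list, with 73 of the 281 matched genes, but a test was possible for only 7 in MV4-11 and 16 in KG-1a. In MV4-11, 1 was lower and 2 were higher under 8CA (28.6% higher, all genes 21.2%), and 3 were higher under 8AA (42.9%, all genes 13.9%). In KG-1a, 4 were higher under 8CA (25%, all genes 23.4%), and 1 was lower and 6 were higher under 8AA (37.5%, all genes 25.4%). CSMD3, a CUB and sushi domain membrane protein of 1214.1 kb, rose in MV4-11 alone. At 24 h it was at 17.0 and 15.7 CPM untreated, 36.6 and 34.4 under 8CA, and 32.7 and 29.1 under 8AA in that line (log2 fold changes 1.12 ± 0.09 and 0.92 ± 0.09, edgeR adjusted p of 2.1e-07 and 6.7e-06). In KG-1a it was at 24.0 and 24.8 untreated, 21.4 and 22.1 under 8CA, and 17.9 and 23.7 under 8AA. The difference between the lines was 1.31 under 8CA (interval 0.99 to 1.62, edgeR adjusted p = 2.5e-06) and 1.18 under 8AA (0.86 to 1.50, edgeR adjusted p = 4.5e-06).

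CLSTN2, calsyntenin-2, a postsynaptic cadherin-family protein, was at 8.76 and 9.26 CPM untreated and 19.6 and 22.9 under 8AA in MV4-11 at 24 h (1.24 ± 0.12, edgeR adjusted p = 5.4e-06). CACNA2D3, an auxiliary subunit of calcium channels, fell in MV4-11 under 8CA from 7.54 and 7.14 CPM to 5.11 and 4.23 (−0.65, edgeR adjusted p = 0.0022). With 8AA it was at 8.26 and 8.09, above both untreated libraries, but this was not called. Neither gene had a count in untreated KG-1a.

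In KG-1a at 24 h, adhesion and guidance genes at low levels were among the members that rose most under 8AA. TENM1, teneurin-1, a transmembrane receptor of neurons, was at 0.605 and 0.816 CPM untreated, 1.54 and 1.44 under 8CA, and 6.89 and 8.57 under 8AA (log2 fold change under 8AA 3.43 ± 0.27, edgeR adjusted p = 5.8e-08). SLIT3, a secreted ligand of Robo receptors, was at 2.22 and 3.05 CPM untreated, 2.85 and 2.58 under 8CA, and 7.43 and 7.39 under 8AA (1.50 ± 0.15, edgeR adjusted p = 1e-06). The untreated and 8CA libraries of SLIT3 overlapped, and the 8AA libraries lay apart. PCDH9, a protocadherin, was higher at 8 h, at 15.9 and 16.1 CPM untreated, 21.0 and 19.0 under 8CA, and 26.7 and 28.4 under 8AA (0.79 ± 0.08 under 8AA, edgeR adjusted p = 2.8e-06). At 24 h it was at 18.0 and 19.2 CPM under 8AA against 15.8 and 15.8 untreated.

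SDK1, sidekick-1, an immunoglobulin adhesion protein that is in none of the role lists, rose under 8AA in both lines. Its KG-1a levels at 24 h were 0.655 and 0.761 CPM untreated, 1.59 and 1.29 under 8CA, and 4.84 and 4.68 under 8AA. In MV4-11 it was at 1.59 and 1.76 untreated, 1.83 and 2.07 under 8CA, and 3.40 and 3.83 under 8AA. The 8AA changes were 2.74 ± 0.24 in KG-1a and 1.10 ± 0.19 in MV4-11 (edgeR adjusted p of 2e-07 and 0.0005), and they differed by −1.62, MV4-11 minus KG-1a (interval −2.29 to −0.95, edgeR adjusted p = 0.00064).

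Of the 18 matched members at common fragile sites, a test was possible for 4 in MV4-11 and 10 in KG-1a. In MV4-11 at 24 h none of the 4 was called by edgeR, and 1 had an unadjusted p under 0.05 with each drug, in the direction of a rise. In KG-1a 2 rose under 8CA (20%, all genes 23.4%), and 1 fell and 4 rose under 8AA (40%, all genes 25.4%), RORA among them. The list of metabolic, mitochondrial and protein-modifying enzymes held 1 lower and 2 higher under 8CA among the 9 tested in MV4-11, the latter 22.2% against 21.2% of all genes. In KG-1a 1 of 12 was lower and 2 higher under 8CA, and 2 were higher under 8AA, 16.7% in both cases and below the share of all genes.

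The most counted gene of that list, ELMO1, is an engulfment adaptor and no enzyme. After 24 h KG-1a held it at 123 and 126 CPM untreated, 187 and 185 under 8CA, and 137 and 126 under 8AA. It rose under 8CA alone (0.58 ± 0.05, edgeR adjusted p = 5.7e-07). In MV4-11 the groups overlapped (−0.06), and the difference between lines was −0.61 (interval −0.80 to −0.43, edgeR adjusted p = 6.2e-05).

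Matched genes in none of the role lists numbered 95, with 31 tested in MV4-11 and 46 in KG-1a. In MV4-11 6 were lower and 10 higher under 8CA (32.3% higher, all genes 21.2%), and 3 and 10 under 8AA (32.3%, all genes 13.9%). In KG-1a 7 were lower and 8 higher under 8CA (17.4%, all genes 23.4%), and 6 and 9 under 8AA (19.6%, all genes 25.4%). AFF3 was at 182 and 180 CPM untreated, 284 and 281 under 8CA, and 232 and 226 under 8AA in MV4-11 at 24 h (log2 fold changes 0.64 ± 0.05 and 0.34 ± 0.05, edgeR adjusted p of 5.9e-08 and 8.2e-05). CREB5, a CREB-family transcription factor, was at 19.4 and 19.2 untreated, 37.8 and 36.5 under 8CA, and 28.1 and 25.3 under 8AA (0.94 ± 0.08 and 0.47 ± 0.08, edgeR adjusted p of 2.3e-07 and 0.0005). For both genes the order was 8CA, then 8AA, then untreated, with no overlap.

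STARD13 and KALRN, a guanine nucleotide exchange factor, fell under 8CA in KG-1a. STARD13 was at 35.2 and 33.2 CPM untreated, 23.0 and 22.3 under 8CA, and 31.9 and 32.3 under 8AA at 24 h (8CA −0.59 ± 0.06, edgeR adjusted p = 2.5e-06). KALRN was at 4.23 and 4.08 untreated, 1.77 and 2.33 under 8CA, and 5.09 and 4.58 under 8AA (8CA −1.02 ± 0.18, edgeR adjusted p = 0.00029). FRMD4A, a FERM-domain scaffold of cell polarity, rose under 8AA in MV4-11. It was at 9.23 and 10.4 CPM untreated, 12.8 and 12.1 under 8CA, and 19.9 and 19.8 under 8AA at 8 h (8AA 1.01 ± 0.09, edgeR adjusted p = 1.5e-06), and the rise was 0.59 at 24 h (edgeR adjusted p = 0.00019).

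HIVEP3, a large zinc finger protein, fell under 8AA in MV4-11 at 8 h, from 30.8 and 36.5 CPM to 19.6 and 22.2 (−0.69 ± 0.09, edgeR adjusted p = 5.9e-05). In KG-1a at 24 h it rose under 8AA, from 72.3 and 73.4 to 91.4 and 98.2 (0.38 ± 0.06, edgeR adjusted p = 4.2e-05). The lines differed in the response at 8 h by −0.76 and at 24 h by −0.58, MV4-11 minus KG-1a, both called.

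Further named genes were counted in 1 line or moved differently with the hour. UNC13C, of the Munc13 family that primes synaptic vesicles, had 0 counts in untreated and treated MV4-11 at both hours. In KG-1a it was at 5.29 and 5.66 CPM untreated, 7.14 and 8.24 under 8CA, and 8.89 and 9.90 under 8AA at 24 h, with log2 fold changes of 0.49 ± 0.13 (edgeR adjusted p = 0.0072) and 0.78 ± 0.13 (edgeR adjusted p = 0.00011). The 8CA call was lost under 2 of 13 alternatives and the 8AA call under 0. MCTP1, a calcium-binding C2-domain protein, fell in MV4-11 from 18.5 and 19.7 CPM to 14.8 and 14.5 under 8CA and to 13.6 and 11.7 under 8AA (log2 fold changes −0.38 ± 0.12 and −0.59 ± 0.12, edgeR adjusted p of 0.016 and 0.002), the former call being lost under 3 of 13 alternatives. In KG-1a it was at 8.27 and 7.18 untreated, 10.5 and 9.54 under 8CA, and 5.51 and 6.40 under 8AA, with the rise under 8CA lost under 3 of 13 alternatives and the fall under 8AA under 6.

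NAV2, a neuron navigator protein, changed direction with the hour under 8AA in KG-1a. It was at 3.07 and 3.83 CPM untreated and 1.88 and 1.85 under 8AA at 8 h (−0.89 ± 0.24, edgeR adjusted p = 0.0095), and at 3.03 and 4.08 against 4.80 and 6.26 at 24 h (0.63 ± 0.20, edgeR adjusted p = 0.014). Each of these calls was lost under 2 of 13 alternatives. ARHGAP6 rose under 8AA in KG-1a at 24 h, from 13.4 and 13.7 CPM to 19.5 and 19.7 (0.53 ± 0.08, edgeR adjusted p = 5.2e-05). ATP8A2, a phospholipid flippase, fell there from 10.03 and 10.06 CPM to 7.56 and 7.90 under 8CA and to 7.18 and 5.81 under 8AA. Its log2 fold changes were −0.38 ± 0.12 and −0.62 ± 0.12, with edgeR adjusted p of 0.016 and 0.00052, and the 8CA call was lost under 4 of 13 alternatives.

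**Figure D4:**
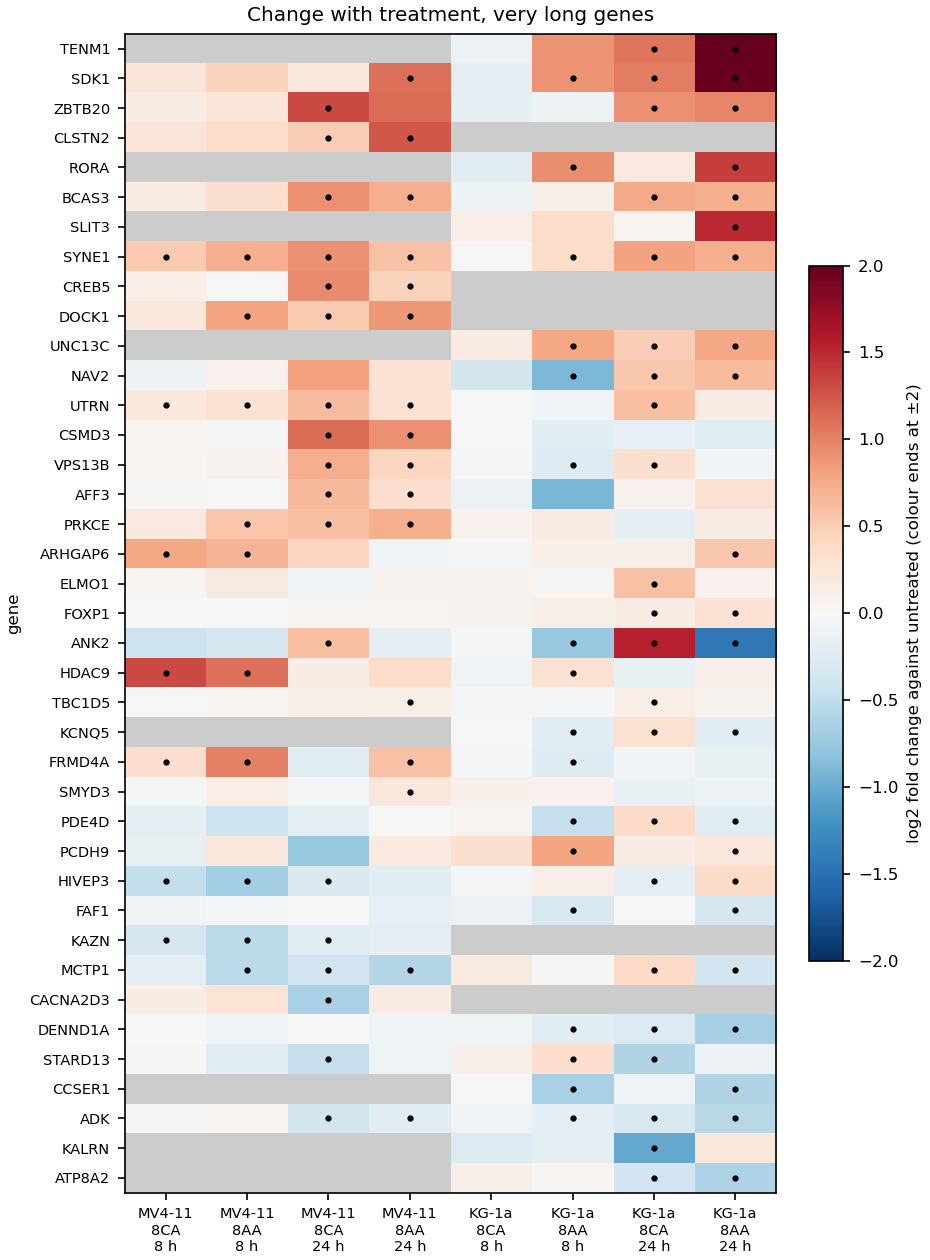
Log2 fold change against the untreated group of the same line and hour for named very long genes, with genes down the side, comparisons along the bottom, a dot where edgeR called the change, grey where the gene was not tested and colours ending at 2 in either direction. SYNE1 and BCAS3 are higher and ADK lower in each of the 4 comparisons at 24 h.

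Genes nested inside matched very long genes could share reads with their host, since strand use in the counting is not given in the sources used here. Of 166 such genes, MV4-11 allowed a test of 12 and KG-1a of 11. At 24 h 2 were lower and 1 higher in MV4-11 under 8CA and 1 was higher under 8AA (8.33% higher with each, all genes 21.2% and 13.9%). In KG-1a 2 were higher under 8CA (18.2%, all genes 23.4%), and 1 was lower and 5 higher under 8AA (45.5%, all genes 25.4%).

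8CA and 8AA, which differ in the group carried by the base, were compared directly at the same dose and hour, in 4 comparisons, with each p adjusted over all genes of its comparison. In KG-1a at 24 h, 33 members were lower and 25 higher under 8AA than under 8CA, against 21.7% and 20.3% of all genes. In MV4-11 at 24 h, 11 were lower and 13 higher, against 9.48% and 11.7%. At 8 h 17 were lower and 16 higher in KG-1a (15.8% and 14.7%), and 2 were called in MV4-11, both higher under 8AA (3.7% lower and 2.96% higher over all genes). Leaving out 1 library gave 18 to 21 called in KG-1a at 8 h, for each of the 4 libraries, 15 in MV4-11 at 24 h without 8AA replicate B, and 1 in MV4-11 at 8 h without 8CA replicate B.

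The largest difference was that of ANK2 in KG-1a at 24 h, where 8AA minus 8CA was −2.99 on the log2 scale (95% interval −3.19 to −2.79, edgeR adjusted p = 7.3e-13). In MV4-11 it was −0.78 (−1.14 to −0.42, edgeR adjusted p = 0.0041). TENM1 (2.36, interval 1.88 to 2.84), SDK1 (1.72, interval 1.29 to 2.15), SLIT3 (1.45, interval 1.13 to 1.76) and RORA (1.20, interval 0.84 to 1.55) were higher under 8AA in KG-1a at 24 h, each called. KALRN was higher under 8AA as well (1.24, interval 0.88 to 1.61). UTRN (−0.45, interval −0.59 to −0.32), ELMO1 (−0.49, interval −0.61 to −0.38) and PDE4D (−0.64, interval −0.81 to −0.46) were lower under 8AA than under 8CA in that line.

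In MV4-11 at 24 h SDK1 was 0.89 higher under 8AA (0.50 to 1.27), FRMD4A 0.81 (0.61 to 1.00), CACNA2D3 0.80 (0.50 to 1.11) and CLSTN2 0.75 (0.51 to 0.99), each called. FRMD4A and PRKCE were the 2 genes called at 8 h, by 0.68 (0.49 to 0.86) and 0.36 (0.20 to 0.52). ADK differed in opposite directions, by 0.16 in MV4-11 (0.05 to 0.26, edgeR adjusted p = 0.038) and −0.24 in KG-1a (−0.37 to −0.12, edgeR adjusted p = 0.0037). For BCAS3 no difference between the drugs was called, with intervals of −0.40 to 0.03 in MV4-11 and −0.23 to 0.12 in KG-1a. SYNE1 differed in MV4-11 (−0.32, interval −0.51 to −0.13, edgeR adjusted p = 0.017) and was not called in KG-1a (interval −0.17 to 0.02).

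**Figure D5:**
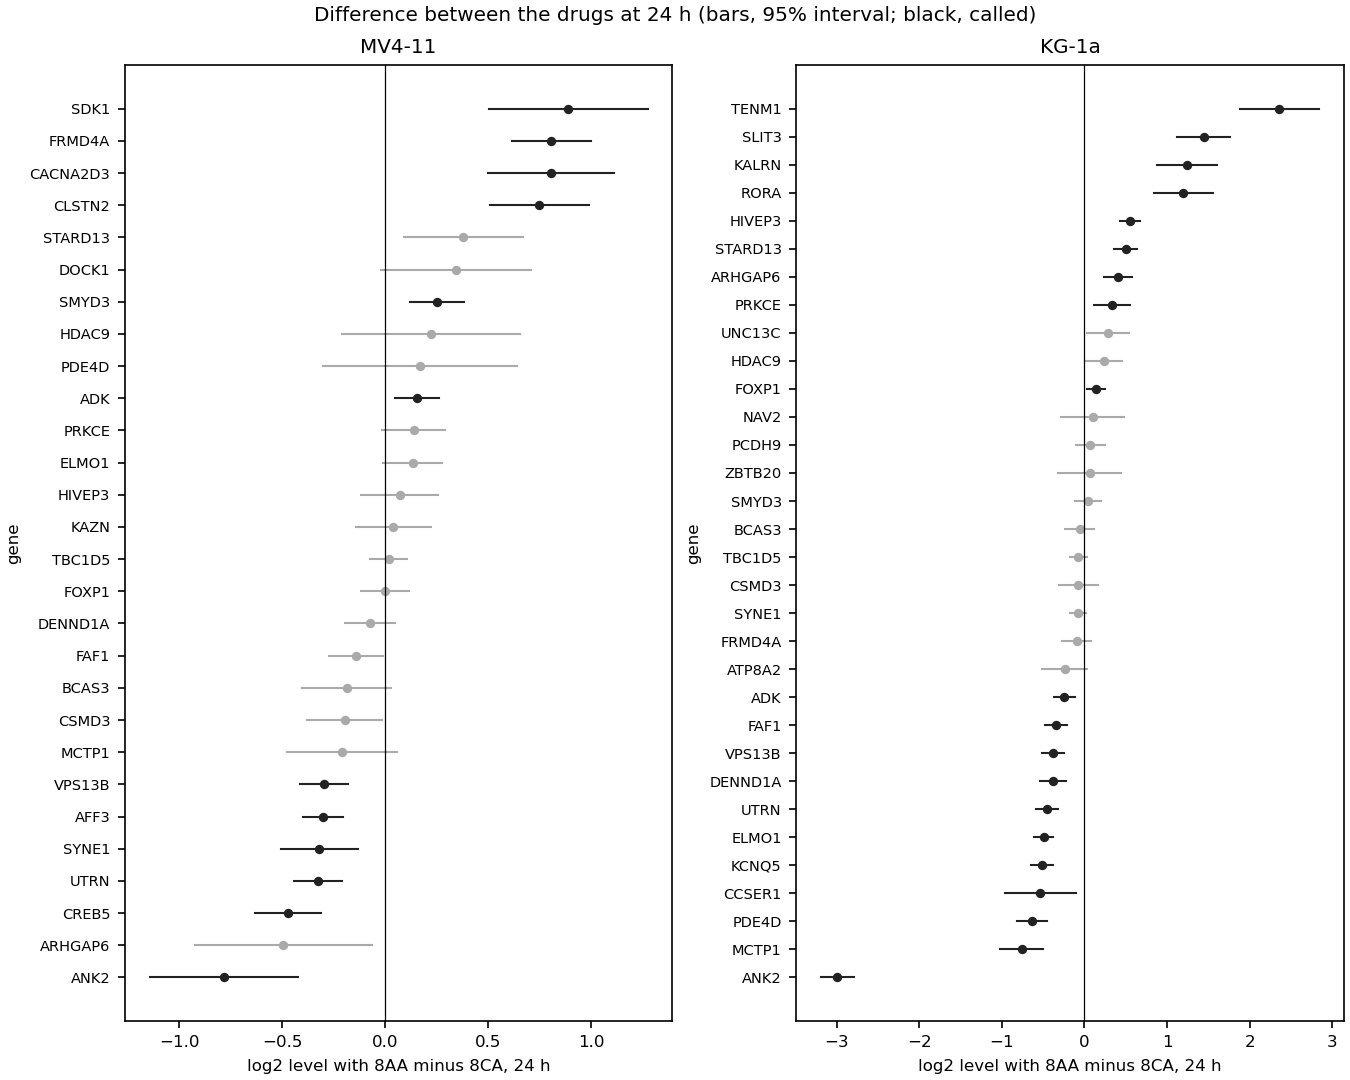
Difference between the drugs, 8AA minus 8CA, in log2 units for named very long genes at 1 log2 CPM or more on average in that line, at 24 h, with points for the estimate, bars for the 95% interval and black for called differences. ANK2 in KG-1a lies farthest below 0 at −2.99 and TENM1 in KG-1a farthest above at 2.36.

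The growth of the response from 8 h to 24 h was tested as a difference of changes. With 8CA, 5 members had a lower change at 24 h and 13 a higher one in MV4-11 (9.83% and 6.48% of all genes), and 7 and 17 did so in KG-1a (12.7% and 11.2%). With 8AA, 8 members were called in MV4-11, each with a higher change at 24 h (2.12% lower and 2.51% higher over all genes), and 10 lower and 15 higher in KG-1a (10.7% and 7.64%). ANK2 in KG-1a under 8CA gave the largest of these among the genes described above for that drug and line, 1.59 (interval 1.32 to 1.86, edgeR adjusted p = 7.3e-07). CSMD3 in MV4-11 gave 1.07 under 8CA (0.77 to 1.37) and 0.94 under 8AA (0.64 to 1.25), both called.

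Between the lines, the response of MV4-11 less that of KG-1a was called lower for 4 members and higher for 9 under 8CA at 24 h (5.44% and 5.76% of all genes), and for 4 and 20 under 8AA (8.51% and 13.8%), among 169 members tested. At 8 h 3 members were called under 8CA, each higher in MV4-11 (0.726% lower and 0.427% higher over all genes), and under 8AA 3 were lower and 17 higher (3.6% and 7.49%). ANK2 differed in opposite directions, by −0.94 under 8CA (interval −1.30 to −0.58) and by 1.27 under 8AA (0.85 to 1.69) at 24 h, both called.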

How the data were processed

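The deposited gene table held raw read counts, which the authors produced and left without normalization, with symbol, position and exon length. The submitters' processing notes name Trimmomatic, STAR 2.6.0, HTSeq 0.11.1, edgeR, hg19 and hg38 without role or order, and the strand setting is not given in the sources used here. The largest stop on chromosome 1, 249213345, lay beyond the last gene end of RefSeq GRCh38.p14, 248937099, so the table's coordinates were read as hg19. The table holds no mitochondrial genes and no row of unassigned reads.

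Members were chosen by span, and members and lists were chosen with earlier results of these data known. Genes were filtered with filterByExpr (minimum count 10), 12800 in MV4-11 and 12711 in KG-1a, scaled by TMM and tested by edgeR 4.0.16 (R 4.3.3, limma 3.58.1) with glmQLFit and glmQLFTest, 12 libraries per line, 1 coefficient per group, and Benjamini-Hochberg adjustment over all genes. Line differences used 24 libraries (14055 genes). CPM are TMM-scaled, and levels between genes are divided by exon length. The paper gives no design for this test. Depth was 18633963 to 24520078 counts, and limits cover counting error only. Each pair of replicates differed by more than counting noise. The steps were tested on simulated data. Named genes were members called alike in all 4 comparisons at 24 h, the 3 lowest and 3 highest called per comparison at 1 log2 CPM or more on average, the 5 longest tested and 5 most counted per line, the 3 largest drug differences, and the most counted of each role list. Alternatives were other scalings and filters, other sets of libraries, the replicate letter, each library left out, DESeq2 1.42.0, a fold threshold, other span limits, and, added after seeing the data, the matched rows alone and those averaging 1 log2 CPM or more. Reference lengths came from GENCODE 29 and RefSeq.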

Additional observations from a re-analysis of the deposited data

Results flagged for a closer look

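The responses of single very long genes are given here where they differed between hours or between lines, by edgeR's test of the difference itself with Benjamini-Hochberg adjustment over all genes and an adjusted p under 0.05. The values are differences of log2 fold changes for the genes named by the rule, they share the untreated libraries within a line, and no explanation was tested.

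In MV4-11 treated with 8CA, the change at 24 h was above that at 8 h for CSMD3 (1.07), ANK2 (1.01), CREB5 (0.81), BCAS3 (0.75), VPS13B (0.70), AFF3 (0.62), UTRN (0.41) and PRKCE (0.40). It was below for ADK (−0.35), FRMD4A (−0.56), CACNA2D3 (−0.80) and HDAC9 (−1.17). With 8AA in MV4-11, the change at 24 h was above that at 8 h for CSMD3 (0.94), CLSTN2 (0.87), NBPF9 (0.62), CREB5 (0.46), HIVEP3 (0.46), VPS13B (0.36) and AFF3 (0.34). KG-1a treated with 8CA had a change at 24 h above that at 8 h for ANK2 (1.59), ZBTB20 (1.10), NAV2 (0.91), BCAS3 (0.86), SYNE1 (0.80), UTRN (0.59), ELMO1 (0.51), VPS13B (0.35) and KCNQ5 (0.31). It was below for ADK (−0.24), PPP2R2A (−0.31), ATP8A2 (−0.50), STARD13 (−0.70) and KALRN (−0.75). KG-1a treated with 8AA had a change at 24 h above that at 8 h for TENM1 (2.53), SDK1 (1.85), NAV2 (1.53), SLIT3 (1.12), ZBTB20 (1.07), BCAS3 (0.60), ARHGAP6 (0.41), SYNE1 (0.35) and HIVEP3 (0.26). It was below for PPP2R2A (−0.28), ADK (−0.38), STARD13 (−0.43), DENND1A (−0.44), PCDH9 (−0.56), ATP8A2 (−0.67) and ANK2 (−0.68).

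Between the lines, the change with 8CA at 24 h was higher in MV4-11 than in KG-1a for CSMD3 (1.31), PRKCE (0.80), VPS13B (0.44) and DENND1A (0.29). It was lower for ELMO1 (−0.61), MCTP1 (−0.74) and ANK2 (−0.94). The change with 8AA at 24 h was higher in MV4-11 for ANK2 (1.27), CSMD3 (1.18), FRMD4A (0.76), PRKCE (0.61), DENND1A (0.59), VPS13B (0.52), ADK (0.36), SMYD3 (0.35) and PPP2R2A (0.27). It was lower for FOXP1 (−0.22), HIVEP3 (−0.58) and SDK1 (−1.62). Under 8CA at 8 h, it was higher in MV4-11 for HDAC9 (1.39) and SYNE1 (0.52). Under 8AA at 8 h, it was higher in MV4-11 for FRMD4A (1.31), PRKCE (0.44), UTRN (0.39), SYNE1 (0.39), VPS13B (0.36), FAF1 (0.33) and ADK (0.25). It was lower for STARD13 (−0.51) and HIVEP3 (−0.76). HDAC9 with 8CA at 8 h rests on a low gene, and its call against the untreated group was lost without 8CA replicate A.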

How the results depend on the processing

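All values here concern the 377 members unless all genes are named, in the order lower then higher, at 24 h unless 8 h is named. Drug differences are in the order MV4-11 at 24 h and 8 h, KG-1a at 24 h and 8 h. The cause of each shift was not tested unless the setting itself changes the genes or libraries. Of 131 called values of named genes, 71 were called under every alternative, 60 were lost under at least 1 and 0 changed sign. The precision is limited by 2 libraries per group, and genes with few counts cannot show small changes.

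DESeq2's Wald test gave 6 and 20 under 8CA at 24 h in MV4-11, 1 higher at 8 h, 5 and 8 under 8AA at 8 h, 8 higher in KG-1a under 8AA at 8 h, and 15 for the drug difference in MV4-11 at 24 h. A span of at least 1000 kb, which leaves fewer genes, gave 3 and 4 in MV4-11 with 8CA at 24 h (median 0.0407), 2 and 2 with 8AA, 2 and 0 at 8 h with 8CA (median −0.014) and 4 and 2 with 8AA (median −0.0207). In KG-1a it gave 3 and 7 with 8CA at 24 h (median 0.1576), 3 and 8 with 8AA (median 0.2636) and 3 and 1 with 8AA at 8 h (median 0.0755), and drug differences of 3, 0, 9 and 4. A span of at least 400 kb, with more genes, gave 65 higher (median 0.1967) under 8CA, 50 higher under 8AA, 13 higher at 8 h with 8CA and 34 higher with 8AA in MV4-11, 26 and 64 (median 0.1108) under 8CA, 31 and 58 under 8AA, and 27 higher at 8 h with 8AA (median 0.0157) in KG-1a, and drug differences of 52, 11 and, in KG-1a at 24 h, 98. A change of 0.5 or more in either direction on the log2 scale left 3 and 16, 2 and 14, 0 and 3, and 3 and 10 for MV4-11 (8CA and 8AA at 24 h, then at 8 h), 3 and 22, 6 and 21, and, under 8AA at 8 h, 6 and 8 for KG-1a, and drug differences of 9, 1, 26 and 10.

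Scaling by library size gave medians of 0.1741 (8CA), 0.2412 (8AA) and 0.1256 (8AA at 8 h) in MV4-11 and 0.1567, 0.1885 and 0.0347 for the same in KG-1a. The medians of all genes tested moved up too, to 0.0534, 0.0538 and 0.0482 in MV4-11 and 0.0336, 0.1079 and 0.0439 in KG-1a. By TMM they were at most 0.0134. Library size gave 3 lower in MV4-11 with 8AA at 24 h, 6 lower and 24 higher at 8 h, and 12 and 50 in KG-1a with 8AA at 24 h. The upper quartile gave medians of 0.1616 (8CA) and 0.1279 (8AA at 8 h) in MV4-11 and 0.1668 (8CA) in KG-1a. All genes tested had 0.0409, 0.0505 and 0.0436 there. It called 3 lower in MV4-11 under 8AA. No filter on low counts gave medians of 0.0038 with 8CA in MV4-11 at 24 h, 0 at 8 h and 0 in KG-1a, 8 lower with 8AA in MV4-11, 1 higher in KG-1a with 8CA at 8 h and 4 for the drug difference in MV4-11 at 8 h. At least 10 counts in every library gave a median of 0.1616 under 8CA in MV4-11, and the fit of all 24 libraries gave 0.035 (8CA) and 0.0298 (8AA at 8 h) in MV4-11 and 0.1075 (8CA) in KG-1a. The fit of the 4 libraries compared gave, for MV4-11, a median of 0.147 under 8CA, 2 and 1 at 8 h with 8CA, 5 and 10 with 8AA, 12 lower in KG-1a with 8AA, and drug differences of 1 in MV4-11 and 50 in KG-1a at 8 h. Matched members alone gave a median of 0.1967 under 8CA in MV4-11, with 3 lower under 8AA, and 2 (8CA) and 4 (8AA) lower at 8 h. Members averaging 1 log2 CPM or more gave medians of 0.1727 under 8CA in MV4-11, and 0.1108 (8CA) and −0.0223 (8AA at 8 h) in KG-1a. The last 2 settings were chosen after seeing the data.

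The replicate letters showed at most weak pairing of the libraries, with correlations of deviations from −0.085 to 0.159. The highest were in MV4-11 at 8 h, 0.132 under 8CA and 0.159 under 8AA. The fit with a replicate block called 8 lower in MV4-11 with 8AA at 24 h and moved no other count by over 1.5 times. It called 22 higher in MV4-11 with 8AA at 8 h, against 16 without the block.

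Leaving out each library in turn gave 5 to 10 lower, 21 to 27 higher and a median of 0.1186 to 0.1711 in MV4-11 with 8CA at 24 h, 2 to 5, 20 to 23 and 0.1379 to 0.2139 with 8AA, 2 to 4, 1 to 2 and 0.0196 to 0.0735 with 8CA at 8 h, and 5 to 7, 8 to 15 and 0.0565 to 0.1059 with 8AA. In KG-1a it gave 7 to 11, 24 to 28 and 0.0989 to 0.1145 under 8CA, 15 to 25, 24 to 39 and 0.0204 to 0.1227 under 8AA, then 0, 0 and 0.0027 to 0.0254 at 8 h with 8CA, and 12 to 17, 7 to 11 and −0.0093 to 0.0247 with 8AA. The drug differences ranged over 15 to 22, 1 to 2, 45 to 65 and 18 to 21.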

Other observations

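A list of 30 elongation and topoisomerase factors, none of them a member, was read beside the very long genes. For MV4-11 at 24 h, 11 were lower and 6 higher under 8CA (36.7% and 20%, all genes 22.7% and 21.2%). Under 8AA 11 were lower and 1 higher (36.7% and 3.33%, all genes 15.3% and 13.9%). For KG-1a 11 were lower and 10 higher under 8CA (36.7% and 33.3%, all genes 24% and 23.4%). Under 8AA 10 were lower and 4 higher there (33.3% and 13.3%, all genes 26.6% and 25.4%). The medians of the log2 fold change were −0.07, −0.11, −0.04 and −0.04 in the same order. Over the 11485 genes tested in both lines, 7.64% were lower and 4.01% higher in all 4 comparisons at 24 h. Factors of the list lower in each of the 4 comparisons by edgeR included TOP1, topoisomerase I, and the RNA-binding protein SFPQ. SUPT16H and SSRP1, the subunits of the histone chaperone FACT, were also lower in each. PCF11, a cleavage and termination factor, was higher in each. SUPT5H, SUPT6H, CDK12, CCNT1 and SCAF8 were called higher at 24 h in both lines under 8CA and in neither under 8AA. These genes were named after their values had been seen.

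The rows whose span exceeded the reference length, or had none, were also counted apart. Of 25 tested in each line at 24 h, 2 were lower and 2 higher in MV4-11 with either drug, 8% each. Over all genes the shares there were 22.7% and 21.2% under 8CA and 15.3% and 13.9% under 8AA. In KG-1a 3 were lower (12%) and 4 higher (16%) with either drug. All genes gave 24% and 23.4% there under 8CA and 26.6% and 25.4% under 8AA. FAM45BP, a pseudogene row of 8767.8 kb, fell by 0.29 on the log2 scale under 8CA in MV4-11 at 24 h, and by the same amount at 8 h, and its reads may be shared with copies.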
